A study of Mus musculus with 26 samples.

Results

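Ribosomal protein pseudogenes are copies of ribosomal protein genes, and in adult mouse testes several of them were listed in some genotypes and at 0 in others. They were chosen by name (gene symbols starting in Rpl or Rps and ending in -ps with or without a number, of any annotated biotype) and by a measured level, at least 10 normalized counts in at least 2 of the 6 testis RNA libraries. Of 310 genes with such a name, 43 were selected on these values, out of 51124 genes in the deposited table. The other 267 were left out: 135 were at 0 in every library, 132 were above 0 somewhere, and 7 reached 10 in a single library. The 6 libraries came from whole testes of adult mice, each from another animal, with 2 from wild type (*WT*, N1 and N2), 2 from *10xPerf* (N3 and N4) and 2 from *10xBulge* (N5 and N6). Both knock-in lines carry 10 binding sites for the pachytene piRNA piR-A in the last exon of *Ythdc2*, a germ cell RNA helicase gene, and were kept as homozygous lines. The sites pair fully with piR-A in *10xPerf* and are mismatched at the slicing position in *10xBulge*. The lines were made with Cas9 in embryos of the hybrid B6D2F1/J, and each knock-in line is an allele of its own. RNA was total RNA depleted of ribosomal RNA, and piR-A is loaded in MILI and MIWI in this tissue.

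A ribosome is built of a small and a large subunit, each made of ribosomal RNA and of proteins named Rps and Rpl. Most of these proteins have 1 working gene with introns, and its abundant mRNA has been copied back into the genome many times in evolution by reverse transcription. Such a processed pseudogene lacks the introns of its parent, sits at an unrelated place and often has no promoter of its own. A recent copy is almost the same as the parental mRNA, so that a short read can match parent and copy alike. The authors assigned the reads with salmon, which divides reads that match several transcripts by likelihood, and the deposited values are therefore estimates of how much of a family belongs to each copy.

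How little sequence tells these copies apart is shown for the copies with the clearest differences between genotypes. Each stretch has 30 bases, is taken from GENCODE M21 transcripts on GRCm38, runs 5′ to 3′ in the sense of the parental mRNA, and lies in the coding part of the parent. Among stretches without gaps, the one with the most differing bases is given. With more than 1 copy, stretches were ranked by the copy with the fewest differing bases, and then by all copies together. Capitals mark bases that differ between the parent and a copy.
For *Rps18*, coding bases 157 to 186, where each copy differs at 1 base of its own:
Rps18: accaagagggctggAgaactcacgGaggaT
Rps18-ps5: accaagagggctggCgaactcacggaggat
Rps18-ps6: accaagagggctggagaactcacggaggaC
Rps18-ps3: accaagagggctggagaactcacgCaggat
For *Rpl34*, coding bases 103 to 132, with 1 differing base:
Rpl34: accaagaaggttgggaaagcacctaaatcT
Rpl34-ps1: accaagaaggttgggaaagcacctaaatcC
For *Rpl15*, coding bases 75 to 104, with 2 differing bases:
Rpl15: ccgctgTtggcaataccgccagctctctgC
Rpl15-ps2: ccgctgCtggcaataccgccagctctctgT
For *Rpl31*, coding bases 231 to 260, with 4 differing bases:
Rpl31: aaggaacgttccataTcgcaTccGagtacG
Rpl31-ps15: aaggaacgttccataGcgcaCccTagtacA
For *Rplp0*, coding bases 685 to 714, with 6 differing bases:
Rplp0: atCgggtaccCAactgttgCctcggtgcCA
Rplp0-ps1: atTgggtaccTGactgttgActcggtgcTG
Over the aligned coding part, *Rps18-ps5* differed from *Rps18* at 3 of 459 bases, *Rps18-ps6* at 4 of 459 and *Rps18-ps3* at 3 of 456. *Rpl34-ps1* differed from *Rpl34* at 2 of 354 bases and *Rpl15-ps2* from *Rpl15* at 8 of 613. The other copies had diverged further, with 11 of 340 bases for *Rpl31-ps15* and 41 of 933 for *Rplp0-ps1*.

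The 43 pseudogenes belonged to 28 gene families, 22 to proteins of the small subunit and 21 to proteins of the large subunit. The annotation in the table called 34 of them processed pseudogenes, 4 transcribed processed pseudogenes, 4 protein coding (*Rplp2-ps1*, *Rpl10-ps3*, *Rps18-ps5* and *Rps18-ps6*) and 1, *Rps18-ps4*, a lncRNA. A sum of normalized counts between 39.8 M and 59.8 M was listed per library over all genes, and 3 reads were worth 2.73 to 3.63 normalized counts. The whole list summed to 29092 and 24236 normalized counts in *WT*, 14574 and 25641 in *10xPerf* and 40633 and 24496 in *10xBulge*, and the genotypes overlapped. In each library, 35 to 37 of the 43 were above 0. Only 18 were at 10 or more in every library, 25 were above 0 in every library, and 18 were at 0 in at least 1. The members nearest to the threshold were *Rps10-ps1*, whose second highest library was at 10.1, and *Rps12-ps26* at 10.6. Just outside it were *Rpl29-ps5* at 9.11 and *Rps6-ps3* at 8.88.

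**Figure D1:**
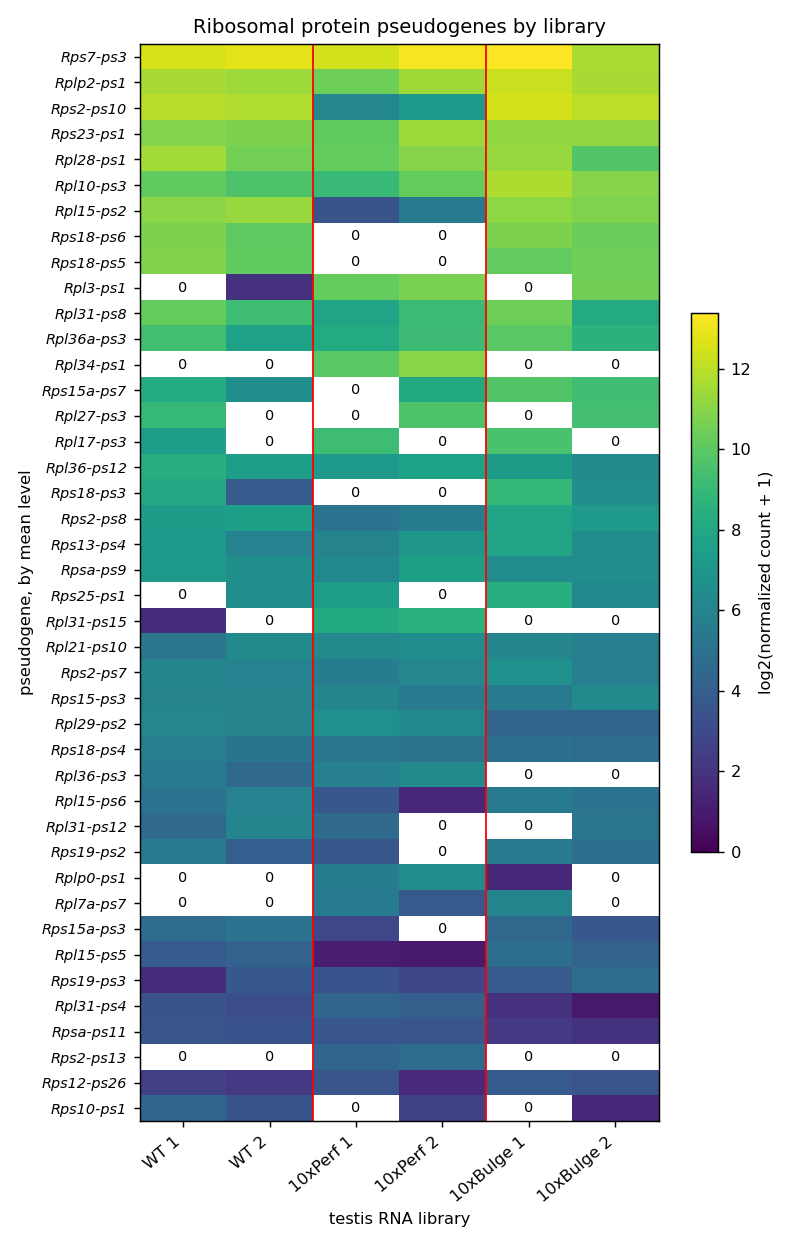
Level of 42 of the 43 pseudogenes (rows, by mean level) in each of the 6 libraries (columns, separated by genotype in red), as log2(normalized count + 1) in colour, with white cells marked 0 where a gene is listed at 0. *Rps18-ps5*, *Rps18-ps6* and *Rps18-ps3* are at 0 in both *10xPerf* libraries, whereas *Rpl34-ps1* and *Rps2-ps13* are above 0 in those libraries alone.

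The pseudogenes with the highest mean included both steady and variable copies. *Rps7-ps3*, a copy of the small subunit gene *Rps7* on the X chromosome, had 6015 and 7256 normalized counts in *WT*, 5614 and 9270 in *10xPerf* and 10594 and 3211 in *10xBulge*. *Rplp2-ps1*, annotated as protein coding and related to the stalk protein gene *Rplp2*, had 3119 and 2676 in *WT*, 1391 and 2803 in *10xPerf* and 5023 and 3126 in *10xBulge*. *Rpl28-ps1*, identical to the large subunit gene *Rpl28* over its length, had 2945 and 1514 in *WT*, 1193 and 1976 in *10xPerf* and 2510 and 889 in *10xBulge*. *Rps23-ps1*, *Rpl31-ps8* and *Rpl36a-ps3* were likewise listed in every library. None of these 6 copies passed in *10xPerf* or in *10xBulge* against *WT* by limma.

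In all, 9 of the 43 pseudogenes (20.9%) were at 0 in both libraries of a genotype and at 10 or more in both libraries of another, where the same held for 3.05% of all 23782 genes tested. Among the 1580 other pseudogenes tested it held for 11.3%. In *WT* the pattern was met by 4 of 43 (*Rpl34-ps1*, *Rpl7a-ps7*, *Rplp0-ps1* and *Rps2-ps13*; 0.341% of all genes tested), in *10xPerf* by 3 (*Rps18-ps3*, *Rps18-ps5* and *Rps18-ps6*; 0.290%) and in *10xBulge* by 4 (*Rpl31-ps15*, *Rpl34-ps1*, *Rpl36-ps3* and *Rps2-ps13*; 2.59%). A pseudogene that entered the list through 1 genotype had to differ, so these shares describe the list and support nothing further.

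In *10xPerf* against *WT*, 5 of the 43 were lower (background 0.492% of all genes tested) and 4 were higher (background 0.467%) at an adjusted p under 0.1 in limma, with Benjamini-Hochberg adjustment over all genes. The median difference over the 43 was -0.06 on the log2 scale, beside 0.02 over all genes tested. None of the 79 genes on the list of parental ribosomal protein genes passed in either direction by limma, and 1 had an unadjusted p under 0.05. That list was taken by symbol, and it also holds *Rps19bp1*, the gene of a protein that binds Rps19. Differences are between means of log2(normalized count + 1), which understates the change of low genes. In whole testes, fewer cells of a type and less RNA per cell cannot be told apart.

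The lower group was led by copies of *Rps18*, which encodes a protein of the head of the small subunit. *Rps18-ps5* (GRCm38 chr13:28257528-28258134, plus strand, 1 exon, intergenic) had 1830 and 1088 normalized counts in *WT* and 1130 and 1363 in *10xBulge*, and both values of *10xPerf* were 0. On the same chromosome, *Rps18-ps6* (chr13:97760072-97760632, minus strand, 1 exon) had 1714 and 1061 in *WT* and 1681 and 1310 in *10xBulge*, and again N3 and N4 were at 0. Both copies thus stood above *Rps18-ps3* in the libraries of *WT* and *10xBulge*, and no library of *10xPerf* held either. *Rps18-ps3* (chr8:107262793-107263248, minus strand, intergenic) had 267 and 13.8 in *WT*, 0 and 0 in *10xPerf* and 486 and 97.7 in *10xBulge* (limma adjusted p = 0.0972), and this call was lost without N1, N3 or N4 and under both other scalings. The parent *Rps18* on chromosome 17 had 4692 and 3033 in *WT*, 3737 and 6616 in *10xPerf* and 4666 and 3595 in *10xBulge*, and the genotypes overlapped.

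The remaining selected copy, *Rps18-ps4*, differed from these. It is a spliced lncRNA of 3 exons (chr13:97751112-97760965, plus strand), and 1 of its exons overlaps *Rps18-ps6* on the opposite strand. It had 54.4 and 35.1 normalized counts in *WT*, 37.4 and 34.6 in *10xPerf* and 28.2 and 25.8 in *10xBulge*, without a call in limma against *WT* in *10xPerf* (adjusted p = 0.908) or in *10xBulge* (adjusted p = 0.374). The copy on the other strand of the same place was therefore at 0 in *10xPerf* while *Rps18-ps4* was not. The libraries were made with a stranded kit, and salmon was run with automatic detection of the library type.

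*Rpl15-ps2*, a copy of the large subunit gene *Rpl15* inside an intron of *Tcf12* on the opposite strand (chr9:72060937-72061549), had 2125 and 2540 normalized counts in *WT*, 10.2 and 45.9 in *10xPerf* and 2230 and 1796 in *10xBulge*. The difference of *10xPerf* from *WT* was -6.66 ± 0.62 on the log2 scale (SE; limma adjusted p = 0.00209), and at -6.79 it no longer passed without N1. *Rpl15-ps6* on chromosome 15 had 32.6 and 60.4 in *WT*, 11.2 and 1.95 in *10xPerf* and 44.0 and 32.7 in *10xBulge* (limma adjusted p = 0.249 for *10xPerf* against *WT*). *Rpl15-ps5* on chromosome 7 had 13.7 and 17.7 in *WT*, 1.02 and 0.976 in *10xPerf* and 27.8 and 18.3 in *10xBulge* (limma adjusted p = 0.121). Both had their 2 lowest values in *10xPerf* without passing the test against *WT*. The parent *Rpl15* had 13498 and 15958 in *WT* and 8498 and 17122 in *10xPerf*, with overlap.

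*Rps2-ps10*, a copy of *Rps2*, a gene for a protein at the mRNA entry of the small subunit, fell from 3932 and 3534 normalized counts in *WT* to 71.1 and 151 in *10xPerf*, with 5768 and 4189 in *10xBulge*. The difference between *10xPerf* and *WT* was -5.15 ± 0.46 on the log2 scale (SE; limma adjusted p = 0.00191). *Rps2-ps10* (chr18:61259008-61259972, minus strand, inside an intron of *Pde6a* on the other strand) lies on the chromosome of the edited gene *Ythdc2* (chr18:44827746-44889724), 16.4 Mb away. *Rpl27-ps3* and *Rps15-ps3* lie on the same chromosome and did not pass. *Rps2-ps8* on chromosome 17 had 161 and 183 in *WT*, 33.5 and 49.2 in *10xPerf* and 226 and 149 in *10xBulge* (limma adjusted p = 0.137 against *WT*), and *Rps2-ps7* on chromosome 16 had 47.8 and 72.7 in *10xPerf* beside 66.9 and 59.4 in *WT*. Of 6 further *Rps2* copies named Gm with a number and tested, 0 passed in *10xPerf* by limma. The highest of the 6 in *WT* was *Gm10420*, with 332 and 297 in *WT* and 7.14 and 58.0 in *10xPerf* (limma adjusted p = 0.121, a gene chosen after its values were seen).

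The 4 pseudogenes that were higher in *10xPerf* reached 10 only in that genotype, so a difference was built into their selection and their levels are given without a test. *Rpl34-ps1*, a copy of the large subunit gene *Rpl34* (chr6:71124610-71124963, plus strand, intergenic), was listed at 0 in all 4 libraries of *WT* and *10xBulge* and at 978 and 2071 normalized counts in *10xPerf*. *Rpl31-ps15* (chr3:37734730-37735104, plus strand, intergenic) was at 2.42 and 0 in *WT*, at 0 in both *10xBulge* libraries and at 279 and 369 in *10xPerf*. *Rplp0-ps1*, a copy of the gene of the central stalk protein (chr3:93278141-93279073, inside an intron of *Flg*), was at 0 in *WT*, at 1.82 and 0 in *10xBulge* and at 48.7 and 86.6 in *10xPerf*. *Rps2-ps13* (chrX:52898588-52899469, plus strand, intergenic) was at 0 in *WT* and *10xBulge* and at 19.5 and 24.9 in *10xPerf*. The parent *Rpl34* had 7632 and 6900 in *WT*, 2732 and 5571 in *10xPerf* and 6023 and 5065 in *10xBulge*, so N3 was the lowest of the 6 and N4 lay between the libraries of *10xBulge*. The difference of *Rpl34* between *10xPerf* and *WT* did not pass in limma (adjusted p = 0.853).

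The share of a family sum (a parent and its named pseudogenes) that was listed under the pseudogenes was computed for each library. In the *Rps18* family, the pseudogenes held 45.2% and 42.0% of the sum in *WT*, 1.29% and 0.593% in *10xPerf* and 41.6% and 43.8% in *10xBulge*. In the *Rps2* family they held 32.0% and 33.3% in *WT*, 2.54% and 2.27% in *10xPerf* and 35.7% and 33.8% in *10xBulge*. In the *Rpl15* family they held 13.9% and 14.1%, 0.263% and 0.284%, and 14.0% and 13.7%, in the same order. The *Rpl34* family ran the other way, with 0% in both *WT* libraries, 26.4% and 27.1% in *10xPerf*, and 0% and 0.0191% in *10xBulge*. Shares within a genotype lay close together in these families, and *10xPerf* lay outside the range of the other genotypes in each.

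**Figure D2:**
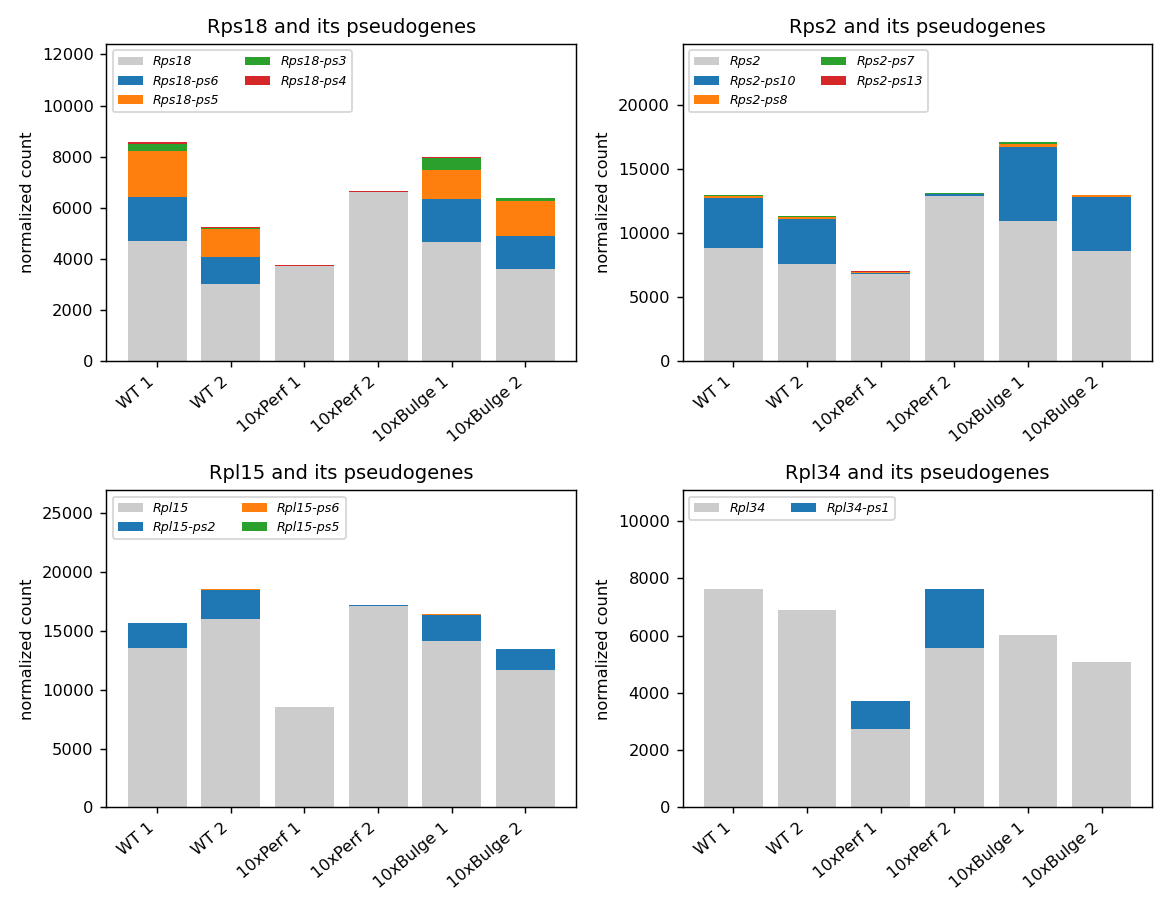
Normalized counts of 4 parental genes (grey) and of their pseudogenes among the 43 (colours), stacked for each of the 6 libraries on axes that start at 0. In the *Rps18*, *Rps2* and *Rpl15* families the coloured part is nearly gone in *10xPerf*, whereas in the *Rpl34* family it is seen in *10xPerf* alone.

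All listed genes, tested or not, were also summed in groups joined at 98% identity or more over at least 80% of the shorter transcript. Genes could be joined directly or through another gene. After this summing, no *10xPerf* difference of these families passed. The difference between *10xPerf* and *WT* of the summed *Rps18* group was -0.42 ± 0.45 on the log2 scale (SE; limma adjusted p = 0.865), that of *Rps2* was -0.39 ± 0.45 (limma adjusted p = 0.867), that of *Rpl15* was -0.49 ± 0.46 (limma adjusted p = 0.855) and that of *Rpl34* was -0.45 ± 0.45 (limma adjusted p = 0.860). Of the 9 pseudogenes called in *10xPerf*, 2 were called after summing. These were *Rpl31-ps15* and *Rplp0-ps1*, which had no such near-identical gene, so nothing was summed for them. Both reached 10 in *10xPerf* only, so their difference was built into the selection and nothing is read from these calls. A p that misses the threshold does not show that the family sums were equal.

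The reference transcripts held 42 of the 43 pseudogenes. *Rplp2-ps1* was not matched. Of the windows of 100 bases in their transcripts, the length of a read here, a median of 54.6% were found in no other gene, with a range from 0% to 100%. With windows of 31 bases the median was 18.3%. In 20 of the 42, fewer than 50% of the windows were their own, and 5 had none (*Rpl27-ps3*, *Rpl28-ps1*, *Rpl31-ps8*, *Rps19-ps2* and *Rps23-ps1*). At least 1 gene of 98% identity was found for 32 of them. For the 2 pseudogenes *Rpl27-ps3* and *Rps19-ps2*, the table itself lists a gene of the same sequence. These shares describe the reference genome, and the sequence of the mice of this study, whose lines were made in hybrid embryos, was not examined.

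The 9 pseudogenes called in *10xPerf* spanned nearly the whole range of this measure. Their median share of own windows was 44.5%, from 1.57% for *Rpl34-ps1* to 98.9% for *Rpl31-ps15*, beside a median of 56.7% for the 33 others. *Rps2-ps10* had 7.62%, *Rps2-ps13* had 23.5%, *Rps18-ps3* had 35.6%, *Rps18-ps5* had 44.5%, *Rps18-ps6* had 53.7%, *Rpl15-ps2* had 56.2% and *Rplp0-ps1* had 91.1%. A near-identical gene was found for 7 of these 9 and for 25 of the 33 others. Copies without any window of their own were among those listed in every library, as for *Rps23-ps1* with 1917 and 1684 normalized counts in *WT* and 1103 and 2772 in *10xPerf*. Every window of *Rps23-ps1* was also found in *Rps23* in this reference. The 24 matched pseudogenes above 0 in every library had a median share of 67.8%.

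**Figure D3:**
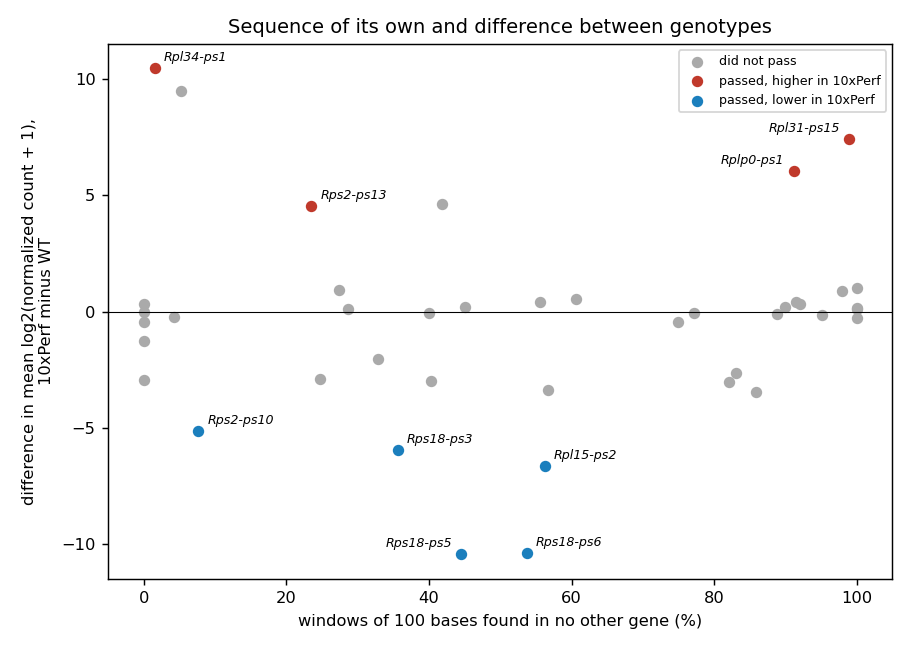
Share of windows of 100 bases found in no other gene (horizontal axis, %) and difference in mean log2(normalized count + 1) between *10xPerf* and *WT* (vertical axis) for the 42 matched pseudogenes. Pseudogenes past the limma threshold, in red or blue, lie between 1.57% and 98.9%, and the size of a difference against a genotype at 0 depends on the added 1.

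The selected pseudogenes lay on 17 chromosomes, with 6 on chromosome 3, 4 each on chromosomes 6 and 13, and 3 each on chromosomes 4, 9, 12, 16, 18 and X. The 9 called in *10xPerf* lay on 7 chromosomes, which also held 16 pseudogenes that were not called. On chromosome 13, *Rps18-ps5* and *Rps18-ps6* lie far apart and both were at 0, whereas *Rps18-ps4* and *Rpl29-ps2* on the same chromosome were not. *Rpl31-ps15* has *Rps23-ps1* (chr3:37714740-37715164) and *Rpl21-ps10* (chr3:38107443-38107922) as neighbours, and neither passed in *10xPerf*. Within 1 Mb on either side of the 9 called pseudogenes lay between 7 and 35 tested genes each. Of these 193, 1 passed in *10xPerf*, *Il21* beside *Rpl31-ps15*. Over all genes tested, 0.467% were higher and 0.492% lower, so few were due in any case and nothing is read from this count.

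**Figure D4:**
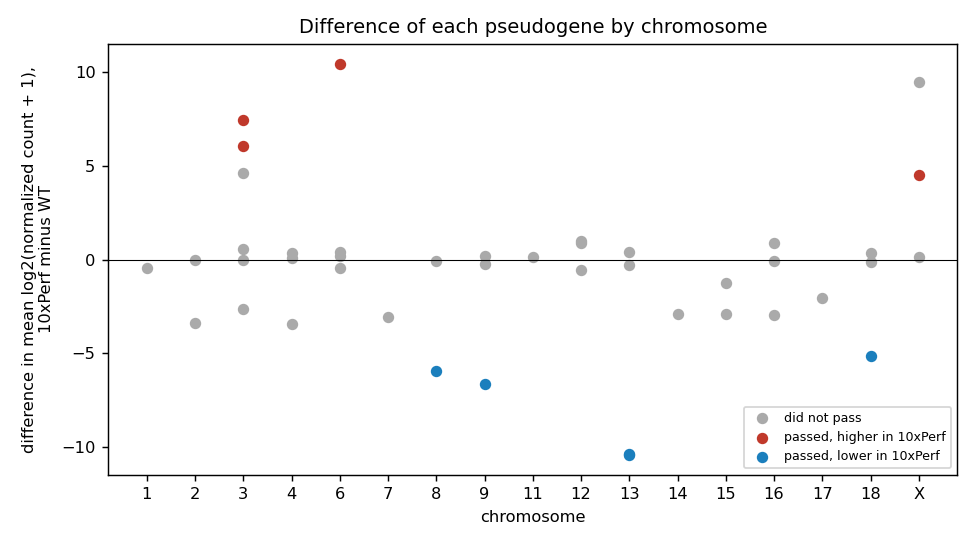
Difference in mean log2(normalized count + 1) between *10xPerf* and *WT* (vertical axis) for the 43 pseudogenes by chromosome (horizontal axis). The 9 that passed the limma threshold lie on 7 chromosomes, and each of these chromosomes also holds pseudogenes that did not pass.

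In *10xBulge* against *WT*, 1 of the 43 was higher (background 11.4% of all genes tested) and 4 were lower (background 23.0%) by limma at an adjusted p under 0.1. Both shares of the list were below the background. The median difference of the list was 0.11 on the log2 scale, beside -0.03 over all genes tested. *Rpl10-ps3*, annotated as protein coding on chromosome 9, had 1112 and 786 normalized counts in *WT*, 526 and 1163 in *10xPerf* and 3384 and 1972 in *10xBulge*, so that N5 and N6 stood above the other 4 libraries. The difference between *10xBulge* and *WT* was 1.47 ± 0.50 on the log2 scale (SE; limma adjusted p = 0.0610), lost without N1, N2 or N5. Only 4.19% of its windows were its own, and 95.8% were shared with the X-linked parent *Rpl10*, which had 1863 and 1900 in *WT* and 4609 and 4583 in *10xBulge* (difference 1.29 ± 0.42, SE; limma adjusted p = 0.0525).

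*Rpl36-ps3* (chr12:12912022-12912336, plus strand) lies in an intron of the lincRNA *Gm40271* on the same strand. It had 46.4 and 23.2 normalized counts in *WT*, 56.6 and 78.1 in *10xPerf* and 0 in both *10xBulge* libraries. *Rpl36-ps3* reached 10 in *WT* and *10xPerf* only, so its selection favoured a difference and nothing is read from its call. All of its windows of 100 bases were its own. Of 14 tested genes within 1 Mb of it, 1 was called higher and 6 lower in *10xBulge*, with *Gm40271* among them. On chromosome 12, 34.4% of all tested genes were called in *10xBulge*. *Rpl29-ps2*, annotated on chromosome 13 with 4 exons over its 3 transcripts, had 71.6 and 61.9 in *WT*, 105 and 75.6 in *10xPerf* and 19.3 and 18.7 in *10xBulge* (difference from *WT* -1.76 ± 0.49, SE; limma adjusted p = 0.0275), lost without N1. *Rpl31-ps4* and *Rps10-ps1*, both under 20 normalized counts in every library, were also called lower. *Rpl31-ps4* (limma adjusted p = 0.0846) reached 10 in *10xPerf* only. Its call was lost without N1, N2 or N6, and without N3 or N4 it no longer met the filter on low values. *Rps10-ps1* reached 10 in *WT* only, so a difference was built into its selection and no test is given for it. In these libraries 4 spermatid marker genes summed to between 337616 and 477507 normalized counts in *WT* but to 580 and 278 in *10xBulge*, and Sertoli cell markers to 50074 and 48807 in *WT* but to 202224 and 78616 in *10xBulge*. Spermatocyte, spermatogonial, Leydig cell and macrophage markers were above 0 in every library, and *Alb* and *Ckm*, markers of liver and muscle, summed to 2.26 to 114. The part of this cell makeup in the pseudogene levels was not tested.

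Between the knock-in lines, 12 of the 43 were higher in *10xBulge* than in *10xPerf* (background 12.9%) and 7 were lower (background 24.1%) by limma. This comparison shares the *10xPerf* libraries with that of *10xPerf* against *WT*. The higher group held *Rps18-ps3*, *Rps18-ps5*, *Rps18-ps6*, *Rps2-ps10* and *Rpl15-ps2*. It also held *Rps2-ps8* (limma adjusted p = 0.00815), *Rpl15-ps6* (limma adjusted p = 0.0279) and *Rpl15-ps5*, which had not passed against *WT*. Their log2 differences between the lines were 2.15, 2.70 and 3.56, and in *10xPerf* against *WT* -2.05, -2.92 and -3.05, in the same order. The threshold passed a larger share of all genes between the lines, so passing in only 1 comparison does not set these differences apart. The others of the higher group were *Rpl10-ps3*, *Rps15a-ps3*, *Rps15a-ps7* and *Rps19-ps2*. In the higher group, *Rps18-ps3*, *Rps18-ps5*, *Rps18-ps6*, *Rps15a-ps3* and *Rpl15-ps5* reached 10 in *WT* and *10xBulge* only. Their selection thus favoured a difference, and nothing is read from the count of the higher group. The lower group was *Rpl34-ps1*, *Rpl31-ps15*, *Rplp0-ps1*, *Rps2-ps13*, *Rpl36-ps3*, *Rpl29-ps2* and *Rpl31-ps4*. Of these 7, 5 (*Rpl34-ps1*, *Rpl31-ps15*, *Rplp0-ps1*, *Rps2-ps13* and *Rpl31-ps4*) reached 10 in *10xPerf* only, so their difference was built into the selection and nothing is read from the count.

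Some pseudogenes split the replicates of a genotype, in some cases beside a difference between genotypes. In 6 of the 43 (14.0%), a library was at 0 and the other library of the same genotype at 50 or more, which held for 0.639% of all genes tested and for 3.86% of other pseudogenes. *Rpl3-ps1*, a copy of the large subunit gene *Rpl3* on the X chromosome, had 0 and 2.78 normalized counts in *WT*, 1179 and 1668 in *10xPerf* and 0 and 1409 in *10xBulge*. The share of the *Rpl3* family sum listed under named pseudogenes was either 0% to 0.0497% or 26.1% to 27.8%. The other 5 were named after their values were seen. *Rpl27-ps3*, identical to *Rpl27* over its length, had 503 and 0 in *WT*, 0 and 794 in *10xPerf* and 0 and 656 in *10xBulge*, so each genotype held a library with it and a library without it. *Rpl17-ps3* had 170 and 0, 600 and 0, and 733 and 0 in the same order. *Rps25-ps1* had 0 and 96.5 in *WT*, 173 and 0 in *10xPerf* and 331 and 75.4 in *10xBulge*. *Rps15a-ps7* was at 0 in N3 alone. *Rpl7a-ps7* was at 0 in both *WT* libraries, at 42.6 and 12.8 in *10xPerf* and at 65.5 and 0 in *10xBulge*.

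**Figure D5:**
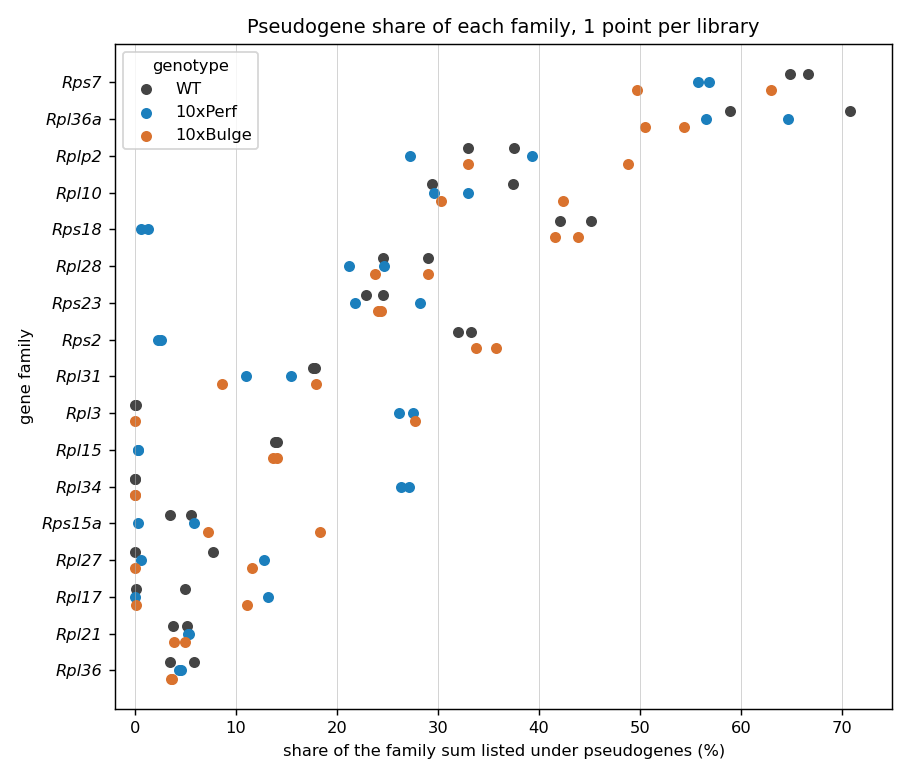
Share of each family sum (parent and named pseudogenes) listed under the pseudogenes, in %, 1 point per library in the colour of its genotype, for the 17 families with at least 5% in a library. *Rps18*, *Rps2* and *Rpl15* separate *10xPerf* from the other genotypes at the low end and *Rpl34* at the high end. *Rpl27* and *Rpl17* divide the libraries within each genotype, and *Rpl3* divides those of *10xBulge*.

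All 6 of these pseudogenes had a gene of at least 98% identity, which held for 32 of the 42 matched pseudogenes. The share of own windows of the 6 ran from 0% to 56.7% with a median of 34.6%, beside 54.6% over the 42. The near-identical group of *Rpl27-ps3* summed to 6512 and 6273 normalized counts in *WT*, 3872 and 6277 in *10xPerf* and 7176 and 5678 in *10xBulge*.

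Of the remaining pseudogenes, 11 were *Rpl21-ps10*, *Rpl31-ps12*, *Rpl36-ps12*, *Rps12-ps26*, *Rps13-ps4*, *Rps15-ps3*, *Rps15a-ps3*, *Rps19-ps2*, *Rps19-ps3*, *Rpsa-ps9* and *Rpsa-ps11*. Their values lay between 0 and 335 normalized counts, with a median of 37.7 over the 6 libraries. Pseudogenes that passed in limma against *WT* were described above and left out here. That 0 of these 11 passed was thus fixed in advance, and nothing is read from it. An unadjusted limma p under 0.05 against *WT* was found for 2 in *10xPerf* and for 0 in *10xBulge*.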

How the data were processed

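The 6 testis RNA-seq libraries (3 genotypes, 2 libraries each) were used, and small RNA libraries from MILI and MIWI immunoprecipitations are not analysed here. The authors mapped single-end reads with salmon (GC bias correction) to GRCm39 with Ensembl transcripts and obtained normalized read counts with DESeq2. These deposited values are a signal per gene, not whole reads: only 19.3% of genes above 0 were whole multiples of a step in every library (tolerance 0.01), so no count test was run. The authors also deposited log2 fold changes and adjusted p-values of their own comparisons, which were not used.

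Members and lists were chosen with earlier results of these data known. The 23782 genes at 10 or more in 2 or more libraries entered a fit of log2(value + 1) on genotype over the 6 libraries (limma 3.58.1, R 4.3.3, empirical Bayes with trend), and p-values were adjusted by Benjamini-Hochberg over all of them. The fit was tested on simulated data with normal noise on the log2 scale. These held no sharing of reads between copies, so that test does not bear on it. With 2 libraries against 2, an exact permutation test gives no p below 0.333. The limma p-values rest on the spread between these animals, in part borrowed from all genes tested. They do not cover the uncertainty of dividing reads among near-identical copies. Alternatives were other scalings, pseudocounts, filters, thresholds, copies summed and each library left out.

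Coordinates, sequences and copies come from GENCODE M21 on GRCm38, another build than the authors', matched by gene ID and with no conversion. Windows of 100 bases (or 31) were compared with all transcripts. Near-identical genes were joined with blastn 2.17.0 at 98% identity over 80% of the shorter transcript. Python 3.11.15, biopython 1.88 and matplotlib 3.10.9 were used. Named were the 10 highest, those at 0 in a genotype, the 6 largest differences in each direction past the threshold without overlap, their near-identical genes and parents, and the 2 nearest on each side of the rule's threshold. Depth was about 41.1 to 61.6 M reads per library, and the worth of 3 reads covers counting error only. The values of 1 of the 43 pseudogenes are not reported here.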

Additional observations from a re-analysis of the deposited data

How the results depend on the processing

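Counts are of the 43 pseudogenes unless said otherwise. Counts with near-identical genes summed include pseudogenes without such a gene, for which nothing was summed. In *10xPerf* against *WT*, the 4 higher became 1 with a pseudocount of 0.1, 0 with a filter of 10 in every library, 2 with near-identical genes summed, 0 with parent and named pseudogenes summed, and 0 to 6 when a library was left out (0 without N3 or N4, where the 4 no longer met the filter on low values, 2 without N1 or N2, 6 without N5 or N6). The 5 lower became 2, 0 and 0 under the filter and both sums, and 3 to 6 when a library was left out (3 without N1). In *10xBulge* against *WT*, the 1 higher became 2 in a fit of both genotypes alone and 0 at an adjusted p under 0.05, and 1 to 2 when a library was left out. The 4 lower became 2 with library totals, with a mean of 10 and at 0.05, 1 with 10 in every library or near-identical genes summed, 0 with families summed, and 1 to 4 without a library (1 without N1, 2 without N2; *Rps10-ps1* no longer met the filter without either). In *10xBulge* against *10xPerf*, the 12 higher became 4, 2 and 2 and the 7 lower 1, 3 and 0 under the filter and both sums, with 8 to 14 higher and 2 to 8 lower when a library was left out (2 without N3 or N4).

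Of the 79 genes on the parental list, 3 were higher and 0 lower in *10xBulge* against *WT*, with 11 higher by library totals, 2 lower by upper quartile, and 1 to 7 higher and 0 to 4 lower when a library was left out. Against *10xPerf* 4 were higher, with 10 by library totals, 2 with a value of 1 in 1 library, in a fit of both genotypes or at 0.05, and 0 to 8 without a library; 2 were lower by upper quartile and 0 to 5 without a library. Library totals moved the median of all genes in *10xBulge* against *WT* from -0.03 to 0.36.

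Pseudogenes at 0 in *WT* became 1 at a level of 50, those at 0 in *10xBulge* 7 with under 3 in place of 0, and those with under 50% of own windows 33 with windows of 31 bases, where 1 in place of 10 had over 90% of own windows. Summing near-identical genes or families reversed *Rpl34-ps1* (-0.45 and -0.45 in *10xPerf* against *WT*, 0.053 and 0.053 between the lines) and *Rps2-ps13* (-0.39 and -0.34, 0.69 and 0.63); families reversed *Rplp0-ps1* (-1.17, and 1.24 between the lines) and *Rpl31-ps4* (0.073 in *10xBulge* against *WT*). These settings replace a copy by a sum led by its parent. No paired analysis was possible because the labels number the libraries N1 to N6, each from another mouse, and give no number that genotypes share. Other settings kept the counts within 1.5 times. With 2 libraries per genotype, small differences between low copies are beyond reach, and normalized values hide the depth behind each.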
